A study of Bos taurus with 11 samples.

Results

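Transcripts that were absent from the inner cell masses (ICM) of a single treatment group numbered 21 among the 37925 bovine transcripts quantified in this RNA-sequencing experiment. They were chosen on their estimated counts: 0, after rounding to whole numbers, in every pool of 1 group, above 0 in every pool of the other groups, and a mean of at least 10 in each of those. In all, 14 were absent from the 3 “SC” pools, 4 from the 4 “SF” pools and 3 from the 4 “SF + PGE2” pools. The rule leaves out any of the 100 transcripts with the highest mean TPM (a level corrected for transcript length and depth), and 0 of those met the other conditions. The counts that chose the transcripts are given below as a description, without a test.

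The ICM came from day 7 bovine blastocysts of morphological grade I, produced in vitro from slaughterhouse oocytes with semen of the same bull. Each pool held 8 to 11 ICM. According to the methods, the maturation medium of every group held epidermal growth factor. The “SC” group had fetal calf serum in the maturation and development media according to the methods, and also during fertilization according to the sample labels, with estradiol, FSH and LH during the 22 h maturation. The “SF” group had no serum and none of these hormones, with albumin in the maturation medium and the vehicle of PGE2 during maturation and fertilization. The “SF + PGE2” group had the serum-free media with prostaglandin E2 (PGE2), a lipid mediator made from arachidonic acid, during maturation and fertilization according to the methods, and also during development according to the sample labels. Serum, hormones and the albumin of the maturation medium are therefore not separated in a comparison with “SC”. The same holds for the vehicle, which the methods do not mention for “SC”, and for the modified oviduct fluid named only for serum-free development. The depth, as the sum of the estimated counts, was 32.5 M to 36.0 M in the “SC” pools, 29.6 M to 40.6 M in the “SF” pools and 29.8 M to 37.8 M in the “SF + PGE2” pools.

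The ICM is the group of cells inside the blastocyst that gives rise to the epiblast and the hypoblast, and the surrounding trophectoderm contributes to the placenta. Immunosurgery and manual dissection are meant to remove the trophectoderm before the RNA is extracted. A gene often makes several transcripts that share exons, and a short read from a shared exon does not tell them apart. Salmon, the program used by the authors, divides such reads among the transcripts in proportion to estimated abundances, so a transcript can receive 0 while another transcript of its gene receives the reads. The deposited files identify transcripts by Ensembl identifier and do not pair them with gene names, so the transcripts are described here by identifier, their genes and functions are not given, and the ICM label was not checked against marker genes.

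The 14 transcripts absent from “SC” had mean estimated counts of 22.1 to 540 over the 8 serum-free pools. They made up 0.0909% of the 15400 transcripts that met the conditions on the “SF” and “SF + PGE2” pools, whatever their counts in “SC”. All 14 had an estimated count of exactly 0 in the 3 “SC” pools before rounding. In bulk RNA, fewer cells that hold a transcript and less of the transcript per cell cannot be told apart. Counts below are listed in the order of replicates 23, 25 and 33 for “SC”, 1, 3, 13 and 35 for “SF”, and 5, 15, 27 and 37 for “SF + PGE2”.

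ENSBTAT00000007652.6 (1770 bases) had the most even counts of the 14. Its estimated counts were 189, 179, 214 and 118 in the “SF” pools and 173, 138, 188 and 126 in the “SF + PGE2” pools, a range of 1.81-fold. The ranges of both serum-free groups overlapped, and no pool stood apart. Against the limit that 0 counts allow, taken as 3 counts over the 3 “SC” pools, its normalized count was at least 168-fold higher in “SF” and at least 151-fold higher in “SF + PGE2”. This limit covers counting error only, since PCR copies were not marked by molecular identifiers and Salmon's division of reads adds an error of its own. Here and below, such folds set the mean of a group against the limit. The spread between the pools of that group is not part of them.

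ENSBTAT00000069733.1 (2556 bases) was the most abundant of the 14, with a mean of 7.20 TPM over the serum-free pools. Its estimated counts were 957, 614, 511 and 287 in “SF” and 680, 995, 171 and 104 in “SF + PGE2”. The highest and the lowest pool were both “SF + PGE2” pools (replicates 15 and 37) and differed 9.57-fold, so that the spread within this group covered the whole range of “SF”. Its normalized count was at least 556-fold higher in “SF” and 467-fold higher in “SF + PGE2” than the limit in “SC”.

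ENSBTAT00000063353.2 (2465 bases) had the lowest unadjusted p of the 14 between the serum-free groups and did not pass the test given further on. It had 237, 49, 270 and 195 in “SF” and 278, 309, 389 and 436 in “SF + PGE2”. All “SF + PGE2” pools lay above all “SF” pools in the deposited counts, and the groups overlapped after scaling for depth and effective length.

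ENSBTAT00000070582.1 (4336 bases) had the opposite balance, with 59, 146, 82 and 44 in “SF” and 51, 39, 12 and 54 in “SF + PGE2”. The “SF” pool of replicate 35 lay below 2 of the “SF + PGE2” pools, so the groups overlapped. ENSBTAT00000016763.6 (3043 bases) was near the limit of detection in 2 of the pools that held it. It had 23, 31, 1 and 36 in “SF” and 1, 31, 48 and 15 in “SF + PGE2”, a range of 48-fold between pools that all count as present. The remaining 9 of the 14 had means of 22.1 to 147 over the serum-free pools and single counts of 6 to 245. These last 3 transcripts were picked out after their values had been seen.

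**Figure D1:**
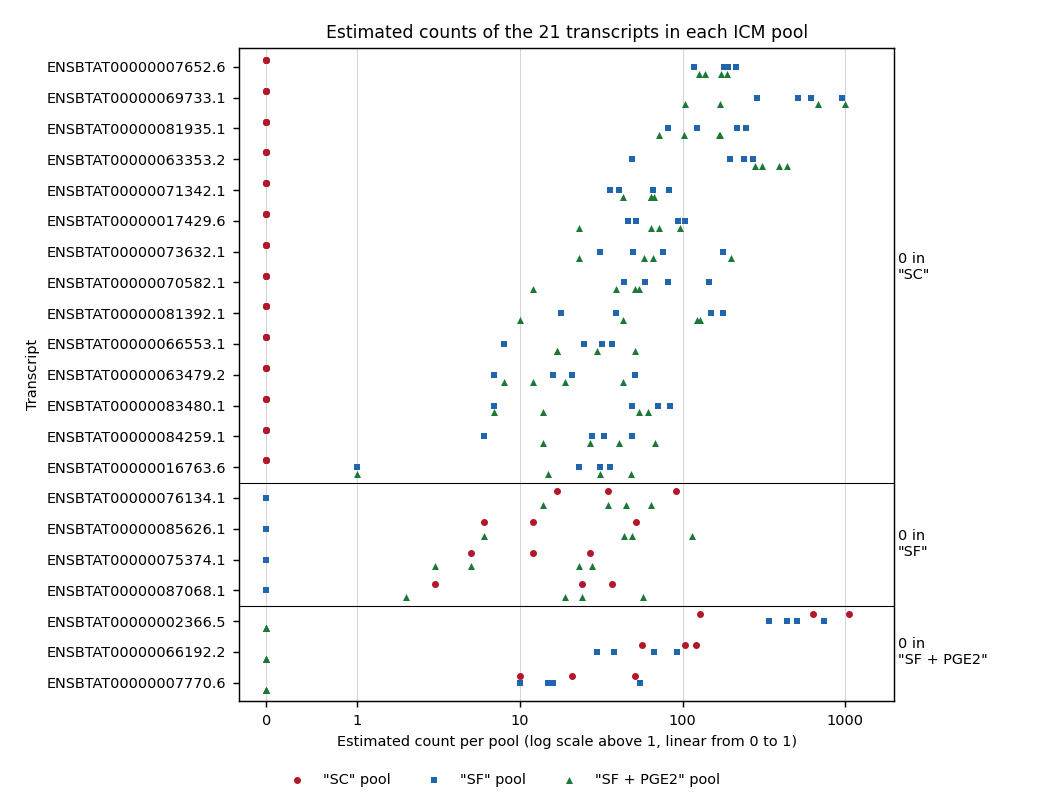
Estimated counts (horizontal axis, log scale above 1) of the 21 transcripts (vertical axis), with a point for each of the 3 “SC”, 4 “SF” and 4 “SF + PGE2” pools and the group at 0 named on the right. Present pools range from 1 (ENSBTAT00000016763.6) to 1050 (ENSBTAT00000002366.5), and the points of the groups that hold a transcript are intermixed for nearly all of them.

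The 4 transcripts absent from “SF” were low wherever they were present, with means of 14.7 to 43 over the 7 “SC” and “SF + PGE2” pools and of 0.193 to 0.564 TPM. They made up 0.0255% of the 15672 transcripts that met the conditions on these pools. All 4 were at exactly 0 in the 4 “SF” pools before rounding. ENSBTAT00000076134.1 (2636 bases) had 35, 91 and 17 in “SC” and 14, 35, 45 and 64 in “SF + PGE2”, and ENSBTAT00000085626.1 (3559 bases) had 12, 52 and 6 in “SC” and 44, 49, 115 and 6 in “SF + PGE2”. In both, “SC” replicate 25 was the highest “SC” pool and its group overlapped with “SF + PGE2”.

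ENSBTAT00000075374.1 (1685 bases) had 12, 27 and 5 in “SC” and 3, 23, 5 and 28 in “SF + PGE2”. ENSBTAT00000087068.1 (3888 bases) had 24, 3 and 37 in “SC” and 24, 57, 19 and 2 in “SF + PGE2”. Each of these had 2 or 3 pools at 5 counts or fewer, so that their presence in those pools rests on a few reads. For the 4, mean normalized counts were at least 21.1-fold to 68.5-fold higher in “SC” than the limit of 3 counts over the “SF” pools. In “SF + PGE2” they were at least 20.03-fold to 69.8-fold higher. The spread between pools, wide for all 4, is not part of these folds.

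The 3 transcripts absent from “SF + PGE2” included the transcript with the highest counts of all 21. They made up 0.0196% of the 15309 transcripts that met the conditions on the “SC” and “SF” pools, and all 3 were at exactly 0 in the 4 “SF + PGE2” pools before rounding. ENSBTAT00000002366.5 (4888 bases) had 1050, 128 and 635 in “SC” and 741, 435, 340 and 506 in “SF”. The “SC” pools spread more widely than the “SF” pools and held both the highest and the lowest count. ENSBTAT00000066192.2 (1862 bases) had 104, 56 and 121 in “SC” and 93, 67, 38 and 30 in “SF”, with “SC” replicate 25 inside the range of “SF”.

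ENSBTAT00000007770.6 (3025 bases) had 21, 51 and 10 in “SC” and 55, 16, 10 and 15 in “SF”, so a single pool of each group was above 50 and the rest were at 21 or below. Against the limit of 3 counts over the “SF + PGE2” pools, the normalized counts of the 3 transcripts were at least 38.3-fold to 802-fold higher in “SC” and at least 29.7-fold to 642-fold higher in “SF”.

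Summed counts of the 3 transcripts absent from “SF + PGE2” were carried largely by 1 of them. The most abundant of the 14 absent from “SC” gave a share of their sum that varied between pools. Of the 3 absent from “SF + PGE2”, ENSBTAT00000002366.5 gave 1050 of 1175 counts in “SC” replicate 23 and 741 of 889 in “SF” replicate 1. Of the 14 absent from “SC”, ENSBTAT00000069733.1 gave 957 of 1912 counts in “SF” replicate 1, 995 of 2081 in “SF + PGE2” replicate 15 and 104 of 1445 in “SF + PGE2” replicate 37. The 14 transcripts absent from “SC” together took 46.6 ± 8.35 of each M counts of an “SF” pool (SD, n = 4) and 47.3 ± 12.6 of those of an “SF + PGE2” pool (SD, n = 4). For the 4 absent from “SF” this share was 3.17 ± 1.88 in the “SC” pools (SD, n = 3) and 3.82 ± 0.994 with PGE2 (SD, n = 4). For the 3 absent from “SF + PGE2” it was 20.6 ± 12.8 in the “SC” pools (SD, n = 3) and 16.0 ± 4.74 in the “SF” pools (SD, n = 4), where “SC” replicate 25 was lowest at 7.22 and “SC” replicate 23 highest at 32.7. The means of the groups that held the transcripts differed by less than the SD of the more variable group in each of the 3 sets.

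**Figure D2:**
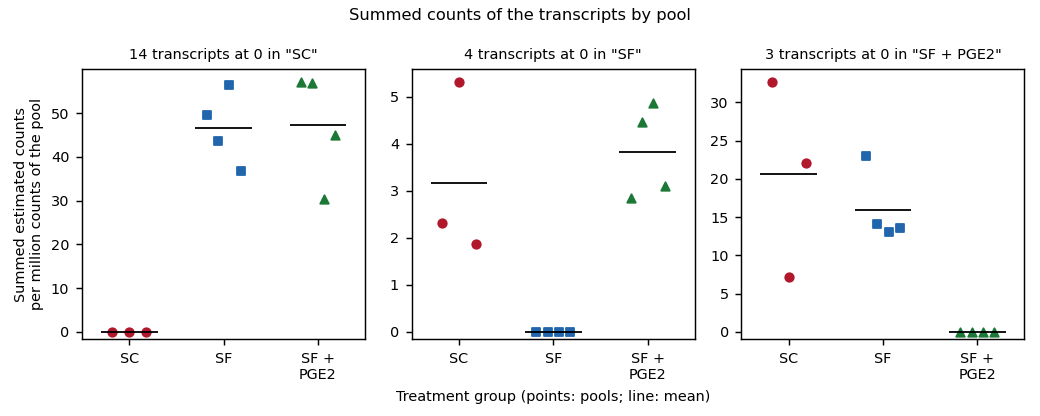
Summed estimated counts of the transcripts absent from “SC” (left), “SF” (middle) and “SF + PGE2” (right), per M counts of the pool (vertical axis, a different scale in each panel). Points are the pools of a treatment group and lines are group means. The 8 serum-free pools lie between 30.3 and 57.1 in the left panel, and the “SC” pools are at 0.

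No transcript of the 21 passed the test of a difference between the 2 groups that held it. This comparison was not used to choose them, except that both groups had to hold the transcript. It was tested with edgeR's quasi-likelihood test on all 22067 transcripts that passed the filter on low counts, with Benjamini-Hochberg adjustment over all of them. All 21 passed that filter. Of the 14 transcripts absent from “SC”, 0 were called between “SF” and “SF + PGE2” at an adjusted p under 0.05, as for 0% of all transcripts tested. Of the 4 absent from “SF”, 0 were called between “SC” and “SF + PGE2” (0.0363% of all), and of the 3 absent from “SF + PGE2”, 0 between “SC” and “SF” (0.0136% of all). At an unadjusted p under 0.05 edgeR also gave 0 of the 21, where all transcripts gave 3.96%, 9.17% and 11.8% in the 3 comparisons. DESeq2's Wald test called 0 of the 21 too. In normalized counts the groups overlapped for all 21, where 2.8%, 9.84% and 11.5% of all transcripts had no overlap between the same groups. In sets of 14, 4 and 3 transcripts, 0 is near what such shares give, so neither result sets the 21 apart. All transcripts tested also include some at 0 in pools of a compared group, which the choice of the 21 did not allow. The shares are therefore not a like background.

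The median log2 fold change of “SF” over “SF + PGE2” was 0.18 for the 14 transcripts absent from “SC” and -0.01 over all transcripts, with 8 of the 14 above 0. The fold changes ran from -0.91 for ENSBTAT00000063353.2 (standard error 0.54, 95% interval -2.13 to 0.32, unadjusted p = 0.129 from edgeR) to 1.01 for ENSBTAT00000070582.1 (standard error 0.76, 95% interval -0.72 to 2.74, unadjusted p = 0.217 from edgeR), and the adjusted p from edgeR was 1 for all 14. The most even transcript, ENSBTAT00000007652.6, had 0.16 with a 95% interval of -0.81 to 1.13, which leaves room for a 2-fold difference in the direction of “SF”. For the 4 absent from “SF” the log2 fold changes of “SC” over “SF + PGE2” lay between -1.05 and 0.36 (median -0.06, and -0.03 over all transcripts). For the 3 absent from “SF + PGE2” those of “SC” over “SF” were all above 0, between 0.32 and 0.82, and the largest, of ENSBTAT00000066192.2, had a 95% interval of -0.84 to 2.47 (adjusted p = 0.765 from edgeR). The intervals are wide, and a p that misses the threshold does not show that the groups held the transcripts at the same level.

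**Figure D3:**
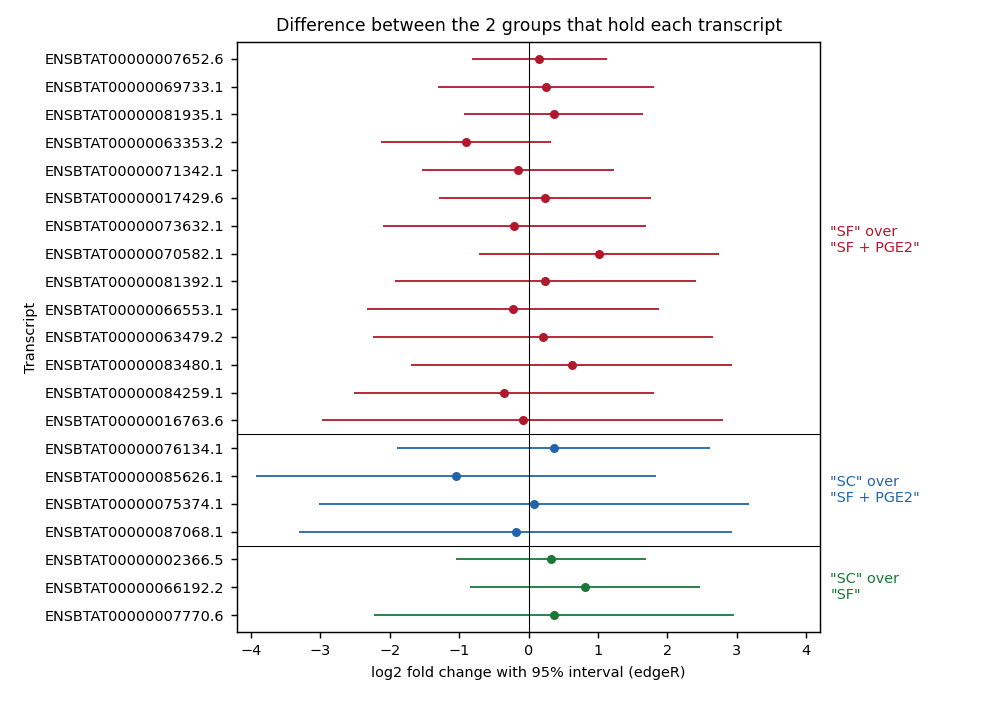
The log2 fold change (horizontal axis) between the 2 groups that hold each of the 21 transcripts (vertical axis), from edgeR's quasi-likelihood fit, with its 95% interval as a bar and the direction of the comparison on the right. All 21 intervals include 0, and the estimates lie between -1.05 and 1.01.

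In the comparisons that the choice of transcripts already fixes, the calls of edgeR are given as a description only. Between “SC” and “SF + PGE2” 5 transcripts were called lower in “SC” (0.0227% of those tested), of which 4 were among the 14 absent from “SC”, and 3 were called higher (0.0136%), of which 2 were among the 3 absent from “SF + PGE2”. Between “SC” and “SF” all 3 that were called (0.0136%) were lower in “SC” and among the 14. The other members did not pass, and of the 4 absent from “SF” 0 were called in any comparison. Between “SF” and “SF + PGE2”, where the choice fixes the 4 and the 3, edgeR called 0 transcripts. Even ENSBTAT00000002366.5, with 741, 435, 340 and 506 in “SF” and 0 in every “SF + PGE2” pool, was not called. A result of 0 calls between 2 groups therefore does not show that they are alike. Without “SC” replicate 23, edgeR called 0 transcripts in either comparison with “SC”. Between “SC” and “SF” it also called 0 with “SF” replicate 1, “SF + PGE2” replicate 5 or “SF + PGE2” replicate 27 left out. Between “SC” and “SF + PGE2” it called 1 without “SF” replicate 35, 2 without “SF + PGE2” replicate 5 and 3 without “SF” replicate 3.

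Transcript models whose counts Salmon had to divide were common among the 21, as they were among transcripts with a mean of at least 10 in every group. A count that is not whole, by more than 0.001, is one in which reads were shared with other transcripts. Of the 21 transcripts, 19 (90.5%) had such a count in at least 1 pool, against 73.8% of the 18470 transcripts with a mean of at least 10 in every group. The exceptions were ENSBTAT00000016763.6, absent from “SC”, and ENSBTAT00000066192.2, absent from “SF + PGE2”, whose counts were whole in every pool. Among the 4 absent from “SF” all had shared reads, ENSBTAT00000087068.1 in 1 of 7 pools and the others in all 7. Among transcripts that met the conditions on the serum-free pools, 4356 had whole counts and 11044 did not, and they held 1 and 13 of the 14 transcripts absent from “SC”.

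Over all transcripts, a pool at 0 was more frequent where reads had been divided, except at the lowest counts. With a mean of 100 to 300 counts over the 11 pools, 23.8% of 3075 transcripts with divided reads were at 0 in at least 1 pool, against 6.64% of 873 with whole counts. With a mean of 300 to 1000 these shares were 5.97% and 0.672%, and with a mean of 10 to 30 they were 81.0% and 82.4%. The part of this division of reads in the 0 counts of the 21 transcripts was not tested, since their genes and the transcripts that share their reads are not paired in the files.

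**Figure D4:**
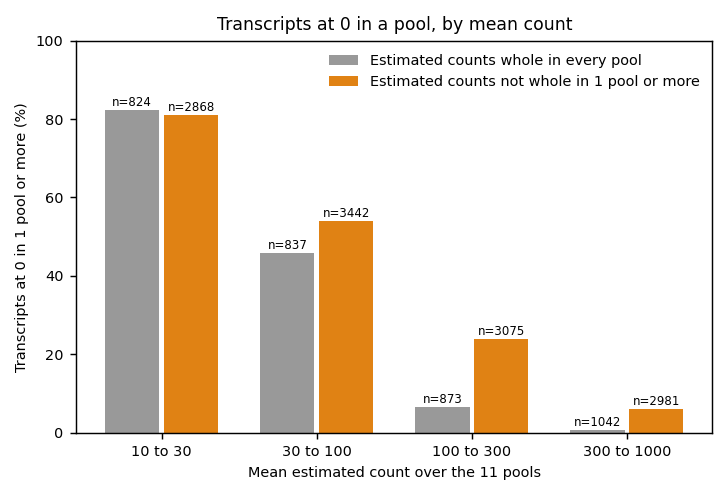
Share of transcripts at 0 in 1 pool or more (vertical axis, percent) by the mean estimated count over the 11 pools (horizontal axis), for transcripts whose counts were whole in every pool (grey) and those with a count that was not whole (orange), with the number of transcripts above each bar. The bars are 82.4% and 81.0% at means of 10 to 30, and 6.64% and 23.8% at means of 100 to 300.

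The 21 transcripts had a higher median length and lower median levels than sets chosen by a minimum mean of 10 counts. Their median length was 3025 bases (quartiles 2317 and 3793), against 2212 bases (quartiles 1455 and 3291) for those with a mean of at least 10 in every group, and none was longer than 4888 bases. That set was not matched to the 21 in level, so length and level are not separated here. A mean below 1 TPM over the pools that held the transcript was found for 14 of the 21. The median was 0.720 TPM for the 14 absent from “SC”, 0.356 for the 4 absent from “SF” and 1.42 for the 3 absent from “SF + PGE2”, where the transcripts that met the conditions on the same pools had medians of 8.11, 7.91 and 7.79 TPM.

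Of the 21 identifiers, 13 (61.9%) carried version number 1, the number of a transcript model that has not been revised since its identifier was given, against 36.3% of the transcripts with a mean of at least 10 in every group. All 4 absent from “SF” carried it, as did 9 of the 14 absent from “SC” and 0 of the 3 absent from “SF + PGE2”. Transcripts outside the 21 that were at 0 in 3 or 4 pools, with a mean of at least 10 over the others, lay between the 21 and that larger set. Version number 1 was carried by 55.5% and 54.0% of them, nearer to the 21. Counts were not whole in 78.1% and 79.5%, and median lengths were 2390 and 2547 bases, both nearer to the larger set. These are differences between sets of transcripts, which are not replicates, and were not tested.

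The counts of most of the 21 varied widely between the pools that held them. The highest pool of a transcript was a median of 8.78-fold above the lowest pool that held it for the 14 absent from “SC”, where 7765 other transcripts in the same range of means had a median of 3.94-fold (quartiles 2.64 and 7.50). Single transcripts of the 14 ran from 1.81-fold for ENSBTAT00000007652.6, below the lower quartile of the others, to 48-fold for ENSBTAT00000016763.6. For the 4 absent from “SF” the medians were 14.3-fold and 6.33-fold (quartiles of the others 3.50 and 13.8). For the 3 absent from “SF + PGE2” the median of 5.50-fold lay within the quartiles of the others (2.63 and 7.55, median 3.97). The others share the range of means and not its distribution, and the difference was not tested. The transcripts did not share a highest pool, since 7 of the 8 serum-free pools were the highest for at least 1 of the 14.

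Counts of 0 beside high counts were frequent among replicate pools of the same treatment. In “SC”, 17.2% of the 20571 transcripts with a mean of at least 10 in that group were at 0 in at least 1 of its pools, in “SF” 20.9% of 20804 and in “SF + PGE2” 19.4% of 21053. A count of 0 in a pool and of at least 100 in another pool of the same group was found for 1101 transcripts in “SC”, 1609 in “SF” and 1471 in “SF + PGE2”. Of 946 transcripts at 0 in exactly 3 of the 11 pools, with a mean of at least 10 over the others, 15 (1.59%) were at 0 in the 3 “SC” pools and 884 had their 0 counts in more than 1 group. Of 799 at 0 in exactly 4 pools, 4 (0.501%) were at 0 in the “SF” pools, 4 in the “SF + PGE2” pools, and 791 in pools of more than 1 group.

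The numbers of absent transcripts depended on single pools, both of the group at 0 and of the groups that held the transcripts. When the rule was applied without “SC” replicate 23, 25 or 33, the transcripts absent from “SC” numbered 41, 27 and 43 in place of 14, and without “SF” replicate 13 they numbered 23. Those absent from “SF” numbered 9, 19, 10 and 7 without “SF” replicate 1, 3, 13 or 35, and 7, 8 and 7 without “SF + PGE2” replicate 5, 27 or 37. Those absent from “SF + PGE2” numbered 8, 6 and 7 without “SF + PGE2” replicate 5, 27 or 37, and 5 without “SC” replicate 25 or “SF” replicate 13. With 3 pools at 0 in each group, the numbers were therefore 14 for “SC”, 7 to 19 for “SF” and 4 to 8 for “SF + PGE2”. Leaving out a pool loosens the conditions on 0 and on presence, so a transcript can be lost only through the minimum mean of 10. That the 14 and the 3 were kept in every repeat was therefore largely fixed in advance. The 4 were kept in all but that without “SC” replicate 25, which kept 2.

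The minimum mean of 10 left out few candidates. The member nearest to it was ENSBTAT00000075374.1, with a mean of 14.7 in “SC”, and the nearest transcript outside it, absent from “SC”, had a mean of 7.75 in 1 of the serum-free groups. In total 1 transcript at 0 in “SC”, 2 at 0 in “SF” and 3 at 0 in “SF + PGE2” met the other conditions and lay below the minimum.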

How the data were processed

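The authors quantified paired-end reads of 11 ICM pools with Salmon (1.1.0 in the submitters' notes) on Ensembl cDNA sequences of ARS-UCD1.2, and the settings of that run were not stated in the labels or methods. The deposited values used were the estimated counts per transcript, which are not scaled and need not be whole, with transcript and effective lengths, and the deposited TPM, scaled by Salmon to a sum of 1000000 per pool. The authors' later gene-level steps (tximport, DESeq2) are not in these values. The identifiers matched 0 entries of the RefSeq gene table, and no sequences were used here.

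Groups and replicate numbers came from the sample titles. The transcripts, thresholds and comparisons were chosen with earlier results of these data known. Counts were rounded, and transcripts were chosen from the deposited counts. Tests used edgeR 4.0.16 (R 4.3.3) with filterByExpr, TMM, an offset for effective length, and all 11 pools in a fit with a coefficient per group. Two-sided p-values were adjusted over 22067 transcripts. Fold changes of the fit are without a prior count, with standard errors from the F statistic. Normalized counts were divided by the same TMM and length factors and brought to a common depth, the geometric mean of the pools. The test was tried on simulated data. Alternatives were DESeq2 1.42.0, other scaling, filters and minima, fewer groups, and each pool left out in turn. For each absent group the 2 transcripts with the highest lowest count in the pools that held them were to be named, and others named were chosen after their values had been seen. Replicates were treated as separate pools, and no 2 held identical values (chi-square of at least 51.2 per degree of freedom for any pair of the same treatment). The study produced embryos in 4 sessions that each included the 3 conditions. The labels do not say which session a pool came from, replicate numbers were not read as sessions, and no term for session was fitted, so that session and treatment cannot be told apart where groups hold different sessions.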

Additional observations from a re-analysis of the deposited data

Results flagged for a closer look

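ENSBTAT00000007770.6, absent from “SF + PGE2”, had a pool far from the others in “SF”. Its normalized count was 49.1 in replicate 1 and 11.9 to 15.0 in the other 3 pools, so that the gap was 0.917 of the range of the group, above the critical value of Dixon's test for 4 samples. In total 35 groups of 4 pools were examined over the 21 transcripts and 1 was beyond this value, where chance passes it in about 1 in 20 groups.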

How the results depend on the processing

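The numbers of absent transcripts (14, 4 and 3) stayed within 1.5 times under exact 0 before rounding, a minimum mean of 5 or 20, and a minimum on scaled counts. With each pool left out in turn they were 16 to 43 for “SC”, 4 to 19 for “SF” and 3 to 8 for “SF + PGE2”, since fewer pools have to be at 0 or present. Of the 21 transcripts, 0 were called between the groups that held them under any alternative run. The calls among all transcripts, which form the background, were less stable. Between “SF” and “SF + PGE2” edgeR called 0 (873 at an unadjusted p under 0.05), DESeq2 76, edgeR with no filter on low counts 1, with only 2 groups in the fit 1, and 0 to 1 with a pool left out. Between “SC” and “SF + PGE2” edgeR called 8, DESeq2 500, edgeR with no filter 5, with 2 groups 0, and 0 to 10 with a pool left out. Between “SC” and “SF” edgeR called 3, DESeq2 859, edgeR with 2 groups 0, and 0 to 11 with a pool left out. The cause was not tested. The median log2 fold changes of the 14, 4 and 3 transcripts between the groups that held them ranged from -0.06 to 0.18, from -0.68 to 0.28 and from 0.25 to 1.09 with a pool left out. The share of transcripts with counts that were not whole was 90.5% at a tolerance of 0.01 too. A paired fit, blocked by session, was not made because the labels tie no pool to a session. The groups share no replicate numbers, and these were not read as sessions. Summing the transcripts of a gene was planned and not run, because the identifiers are not paired with genes. At this depth presence in a pool rested on as little as 1 count, and a difference of 2-fold between the groups that held a transcript lay within the intervals of all 21.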

Other observations

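The mirror pattern, a transcript above 0 in every pool of 1 group with a mean of at least 10 there and at 0 in every pool of the other groups, was found for 8 transcripts in “SC”, 2 in “SF” and 1 in “SF + PGE2”. These need more pools at 0 and fewer present than the 21 described above, and no test was made of them.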
